A study of Homo sapiens with 4 samples.

Results

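The genes described here are those of the TRAIL and Fas death receptor pathway in MCF10A.B2 cells, and they were chosen by name: the ligand TNFSF10 (TRAIL), its receptors TNFRSF10A, TNFRSF10B, TNFRSF10C and TNFRSF10D, the receptor FAS, the adaptor FADD, the initiator caspases CASP8 and CASP10, and CFLAR. All 10 were on the array, as 18 probes and 36 spots of the 34127 probes and 43118 spots other than controls, and all 10 were among the 22023 genes tested. The study compared 2 samples of MCF10A.B2 cells (control, labelled Ctrl) with 2 samples in which a shRNA targeted PAK1, a kinase of the p21-activated family (PAK1 shRNA cells). MCF10A is a non-tumorigenic human mammary epithelial line, and the B2 derivative, in both groups, carries a Her2 (ErbB2) receptor that the crosslinker AP1510 activates. Both groups were starved of serum for 3 h and given AP1510 for 15 min before total RNA was taken. The series description names a Tet inducible shRNA and tumor derived cells, while the sample labels and the methods name the cell line, which was followed. The labels do not say whether replicates were separate cultures, so the tests measure only the spread between these samples. The methods describe the controls as wild type cells of the line and the shRNA as tetracycline inducible. No array of a non-targeting shRNA was analysed. Lower PAK1, expression of a shRNA and any other difference between the wild type and the shRNA cells thus cannot be told apart.

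Death receptors are cell surface proteins of the TNF receptor superfamily that carry a death domain inside the cell. When TRAIL binds TNFRSF10A (DR4) or TNFRSF10B (DR5), or Fas ligand binds FAS, the receptors cluster and recruit FADD, which in turn gathers procaspase-8 and procaspase-10 so that they activate each other and start apoptosis. TNFRSF10C and TNFRSF10D bind TRAIL but cannot pass on the death signal, and CFLAR (c-FLIP) competes with the caspases on FADD. Interferon is known to induce TRAIL in many cell types.

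TRAIL, FAS, caspase-8 and CFLAR mRNA were higher in PAK1 shRNA cells, as were TNFRSF10A, TNFRSF10B, TNFRSF10C and CASP10, while FADD and TNFRSF10D were slightly lower. On the brightest probe of each gene, the rise was 74.1-fold for TNFSF10 and between 1.41-fold and 6.63-fold for the others. A dimmer probe of CASP10 rose 9.03-fold. Thus 8 of the 10 genes were higher and 2 lower past the threshold, a Benjamini-Hochberg adjusted p below 0.05 in limma, and 6 rose by at least 2-fold. On these arrays 62.8% of all genes tested passed that threshold, 31% as higher and 31.8% as lower, 8.85% were higher by at least 2-fold and 8.95% lower. The 10 genes had a median log2 fold change of 1.64, and all genes one of 0.02. The 10 genes were chosen with earlier results of these data known, so these shares and medians describe them and are no test. The groups did not overlap for any of the 10 genes, but this held for 81.7% of all genes (42.1% as higher, 39.6% as lower), so it says little about these. With 2 arrays against 2, an exact permutation test of a single gene cannot give a two-sided p below 0.333.

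The arrays were 1-colour Agilent whole genome arrays on 1 slide. Between 78.9% and 83.2% of probes were well above background on each array, and the median spot intensity before normalization was 501 and 384 in control against 326 and 319 in PAK1 shRNA cells. PAK1 itself, read by 1 probe, was at a normalized log2 intensity of 11.19 and 11.27 in control cells and 10.44 and 10.52 in PAK1 shRNA cells, so its mRNA fell to 59.5% of the control level (log2 fold change -0.75, standard error 0.08, adjusted p = 0.00018 from limma). The 9 basal mammary epithelial markers checked were well above background on all 4 arrays, though KRT5 (-1.14), KRT14 (-0.95), KRT17 (-0.72) and TP63 (-1.13) fell on the log2 scale while CDH1 (0.98) and LAMB3 (1.34) rose. Leukocytes also make TRAIL and Fas ligand. The 6 leukocyte markers checked (PTPRC, CD3E, CD3D, MS4A1, CD14 and NKG7) each had a probe well above background on every array, and of these CD14 alone passed the test, with a log2 fold change of 1.32. The log2 of their summed intensity, set mainly by CD14, was 14.27 and 14.21 in control and 15.48 and 15.59 in PAK1 shRNA cells. Without CD14 it was 9.63 and 9.72 against 9.80 and 9.84. The markers other than CD14 were dim, with control means from 6.60 (NKG7) to 7.97 (CD3D), below the median normalized log2 intensity of 8.62. Of 5 fibroblast markers 3 were well above background on every array and PDGFRA on none. The log2 of the summed fibroblast intensity, set mainly by DCN, was 12.20 and 11.95 against 12.97 and 12.93. DCN (0.88), LUM (1.79) and COL1A1 (0.87) rose while PDGFRB fell (-0.58). The 3 endothelial markers were well above background on every array, and the log2 of their summed intensity was 9.91 and 9.96 against 9.62 and 9.56. PECAM1 fell (-1.56), VWF rose (0.37) and CDH5 did not pass. The part of other cell types in the values below was not tested, and in such bulk RNA more cells of a type and more RNA per cell cannot be told apart.

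**Figure D1:**
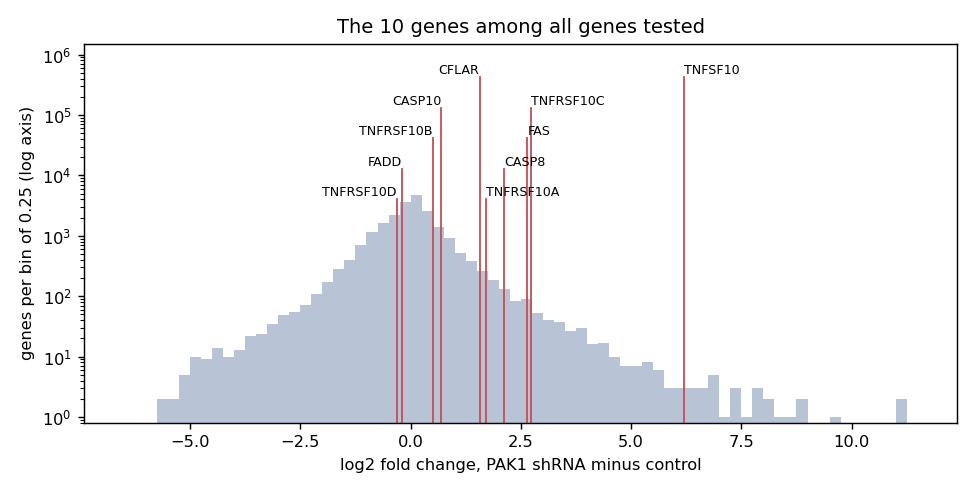
Log2 fold change (PAK1 shRNA minus control, x axis) of all 22023 genes tested as the number of genes per bin (y axis, log scale), with a line at each of the 10 death receptor genes. TNFSF10 lies far out at 6.21, and FADD and TNFRSF10D lie left of 0 near the centre.

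The promoter windows of the RefSeq table (250 bases before and 50 after a start site, GRCh38.p14) were searched on both strands for the core of the interferon response element, GAAA and GAAA with any 2 bases between them, because TRAIL is a known interferon target. The table held 12 windows for 5 of the 10 genes. The core was found once upstream of TNFSF10, at positions -187 to -178 relative to the start site, and once across 1 of 3 start sites of CASP8, at positions -3 to 7, both on the opposite strand. They are printed below from 5′ to 3′ on the strand of the gene, with the match in capitals; TNFSF10 is chr3:172523431-172523680 (minus strand) and CASP8 is chr2:201233363-201233472 (plus strand, its last 10 bases after the start site).
TNFSF10: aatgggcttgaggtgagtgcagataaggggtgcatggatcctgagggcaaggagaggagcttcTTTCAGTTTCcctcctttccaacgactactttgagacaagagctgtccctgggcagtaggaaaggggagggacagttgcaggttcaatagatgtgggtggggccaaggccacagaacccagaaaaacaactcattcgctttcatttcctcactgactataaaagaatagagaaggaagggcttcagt
CASP8: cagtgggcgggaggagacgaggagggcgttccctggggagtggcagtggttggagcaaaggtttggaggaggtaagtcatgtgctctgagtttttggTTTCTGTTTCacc
Of all 35116 windows, 3.57% held this core. The same CASP8 window also held the gamma-activated site (TTC and GAA with any 3 bases between them) at positions -200 to -192, as did 7.66% of all windows. The windows of FAS, FADD and CFLAR held neither motif. A match in a sequence is a description and does not show that a factor binds there.

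TNFSF10 encodes the ligand TRAIL. Its main probe (chr3:172223866-172223925, hg19, minus strand) was spotted 10 times on each array. Its normalized log2 intensity was 10.74 and 10.24 in control and 16.50 and 16.90 in PAK1 shRNA cells. Both PAK1 shRNA arrays thus lay far above both control arrays, and the 10 spots on an array differed with an SD of only 0.20 to 0.21. TNFSF10 thus rose by 6.21 on the log2 scale (standard error 0.19, adjusted p = 1.5e-06 in limma). A second probe (chr3:172224226-172224285) went from 10.49 and 10.15 to 15.93 and 16.21, a log2 fold change of 5.75 (standard error 0.14). No spot of either probe was saturated. Over all genes, 28 rose more than TNFSF10.

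The genes with the pattern most like TNFSF10 were sought by the Euclidean distance of their log2 values, taken relative to the control mean, over the 4 arrays. Of the 20739 genes searched, each well above background throughout, the nearest 5 were GPR109B (log2 fold change 6.36), DDX60L (6.21), IRF7 (6.43), SLC15A3 (5.94) and RTP4 (5.82). With 2 groups of 2 arrays, this likeness is little more than a similar size of change.

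**Figure D2:**
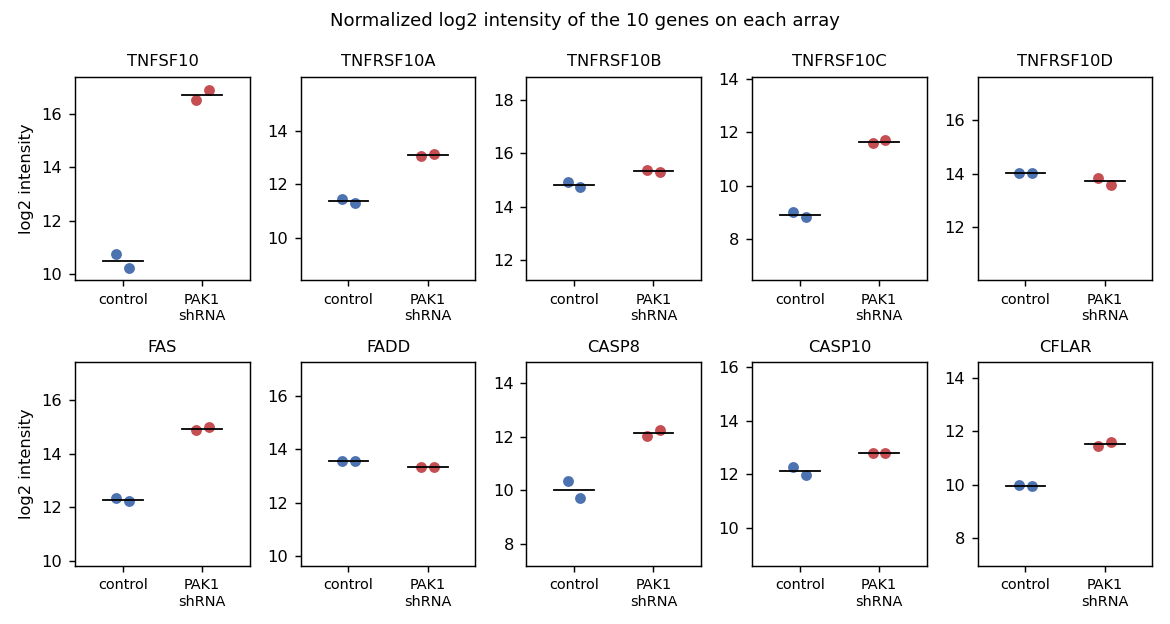
Normalized log2 intensity (y axis) of the 10 genes on each of the 4 arrays, by group (x axis), with points for arrays and a line for the group mean. All panels span the same range, and levels cannot be compared between genes because each is read by its own probe. TNFSF10 goes from about 10.49 to 16.70, while TNFRSF10B, TNFRSF10D and FADD hardly move on this scale.

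The TRAIL receptor genes lie beside each other on chromosome 8, where their 4 probes span 171537 bases (22877776 to 23049312, hg19) in the order TNFRSF10B, TNFRSF10C, TNFRSF10D and TNFRSF10A. Each was read by 1 probe with 1 spot, and cross-hybridization between these related genes was not tested. TNFRSF10A, a receptor with a death domain, was at a log2 intensity of 11.45 and 11.29 in control and 13.06 and 13.11 in PAK1 shRNA cells. It rose by 1.72 on the log2 scale (standard error 0.09, adjusted p = 8.3e-06 from limma), or 3.29-fold. TNFRSF10B, the other receptor with a death domain, was at 14.92 and 14.73 in control and 15.36 and 15.28 in PAK1 shRNA cells. Its rise of 0.50 (standard error 0.09, adjusted p = 0.0028) was 1.41-fold, and the gap between the groups, though small, was wider than the spread within either.

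The decoy receptors went opposite ways. TNFRSF10C, which is anchored in the membrane without an intracellular domain, was at a log2 intensity of 9.01 and 8.83 in control and 11.60 and 11.70 in PAK1 shRNA cells. It rose by 2.73 on the log2 scale (standard error 0.09, adjusted p = 1.8e-06 from limma), or 6.63-fold. TNFRSF10D, whose death domain is truncated, was at 14.05 and 14.03 in control and 13.86 and 13.59 in PAK1 shRNA cells. It fell by 0.31 on the log2 scale (standard error 0.10, adjusted p = 0.034), to 80.4% of the control level. This call is weak. It was lost without control replicate 1 (-0.30, adjusted p = 0.11), without control replicate 2 (-0.33, adjusted p = 0.097) and without PAK1 shRNA replicate 2 (-0.18, adjusted p = 0.18), and under cyclic loess the log2 fold change was -0.15.

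FAS, the receptor of Fas ligand, was read by 3 probes on chromosome 10. The probe spotted 10 times (chr10:90774545-90774604, hg19, plus strand) was at a log2 intensity of 12.35 and 12.24 in control and 14.89 and 15.00 in PAK1 shRNA cells. The groups lay well apart, with the arrays of a group far closer to each other than to the other group. FAS rose by 2.65 on the log2 scale (standard error 0.08, adjusted p = 1.5e-06 from limma), or 6.28-fold. The other probes gave 2.56 and 2.57. FASLG, which encodes Fas ligand, was not well above background on any array.

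FADD, the adaptor shared by TRAIL receptors and FAS, was at 13.5488 and 13.5506 in control and 13.3505 and 13.3369 in PAK1 shRNA cells on its 1 probe. It fell by 0.21 on the log2 scale (standard error 0.07, adjusted p = 0.041 from limma), to 86.7% of the control level, with the arrays of each group nearly alike. This call too is weak. It was lost with any 1 of the 4 arrays left out, at log2 fold changes from -0.21 to -0.20 and adjusted p from 0.087 to 0.15, and under cyclic loess the change was -0.06 (adjusted p = 0.50).

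CFLAR, CASP10 and CASP8 lie in this order on chromosome 2, where their 8 probes span 151167 bases (202000731 to 202151897, hg19). All 8 were higher in PAK1 shRNA cells past the threshold, as were 31.1% of all probes tested. The dimmest CASP10 probe entered the test through PAK1 shRNA cells alone, and probes of 1 gene are not independent. Probes of 1 gene can read different transcripts, so 1 probe each of FAS and of these genes is printed here. Only the CFLAR probe stood for its gene, and those of FAS, CASP8 and CASP10 were dimmer than the probe that did. Each printed probe has a reading frame that no inner stop codon interrupts, and capitals mark the stop codon that ends the frame in FAS. The positions (hg19, plus strand) are chr10:90774148-90774207 for FAS, chr2:202136256-202136315 for CASP8, chr2:202057711-202057770 for CASP10 and chr2:202000731-202000790 for CFLAR.
FAS: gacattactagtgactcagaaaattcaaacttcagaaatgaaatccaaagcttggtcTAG
CASP8: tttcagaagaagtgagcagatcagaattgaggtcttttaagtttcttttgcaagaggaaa
CASP10: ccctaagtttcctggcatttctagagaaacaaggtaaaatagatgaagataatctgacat
CFLAR: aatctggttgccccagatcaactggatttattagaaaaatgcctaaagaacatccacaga
In the test of every probe, these probes gave log2 fold changes of 2.56 for FAS, 1.94 for CASP8, 1.77 for CASP10 and 1.56 for CFLAR.

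CASP8, the initiator caspase of both receptors, was at a log2 intensity of 10.33 and 9.71 in control and 12.04 and 12.25 in PAK1 shRNA cells on its brighter probe (chr2:202151838-202151897). The control arrays differed more than those of the other genes, but both stayed below both PAK1 shRNA arrays. It rose by 2.13 on the log2 scale (standard error 0.20, adjusted p = 0.00012 from limma), or 4.36-fold. The probe printed above was at 8.46 and 8.44 in control and 10.36 and 10.43 in PAK1 shRNA cells, with less spread (standard error 0.07).

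CASP10, a close relative of CASP8 on FADD, was read by 4 probes that did not rise alike. The brightest (chr2:202086244-202086303), which stood for the gene, was at 12.28 and 11.96 in control and 12.81 and 12.81 in PAK1 shRNA cells, a log2 fold change of 0.69 (standard error 0.11, adjusted p = 0.0017 from limma). A probe 1598 bases before it (chr2:202084646-202084705), listed for the same transcript record, was at 8.85 and 8.91 in control and 11.99 and 12.12 in PAK1 shRNA cells. It rose by 3.17 on the log2 scale (standard error 0.08, adjusted p = 3.5e-07), or 9.03-fold. The difference between these probes was -3.42 and -3.05 in control and -0.82 and -0.69 in PAK1 shRNA cells, so it narrowed by 2.48 on the log2 scale, which was not tested. The probe printed above went from 6.91 and 6.89 to 8.61 and 8.74 (1.77), and the last (chr2:202094051-202094110) was not well above background on either control array while in PAK1 shRNA cells it was at least 1.32-fold higher, at means of 6.03 and 6.43. With the mean over the 4 probes in place of the brightest, CASP10 rose by 1.51. These values concern the stretches read by the probes, and which transcripts changed cannot be told apart.

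CFLAR, the competitor of caspase-8, was at 9.999 and 9.948 in control and 11.47 and 11.61 in PAK1 shRNA cells. It rose by 1.56 on the log2 scale (standard error 0.08, adjusted p = 1e-05 from limma), or 2.96-fold, and its second probe (chr2:202025198-202025257) by 1.45. In all, 16 of the 18 probes were higher and 2 lower past the threshold when every probe was tested. The dimmest CASP10 probe entered through PAK1 shRNA cells alone. Of all 27544 probes tested 63.8% passed it, and 31.1% as higher. The plot of all probes shows that those of TNFSF10, FAS, CASP8 and CFLAR lie close together for each gene, unlike those of CASP10.

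The other genes of death receptor signalling were counted by role in the same test, from a list of 41 genes of which 39 were tested. This list too was drawn up with earlier results of these data known. In all 29 were higher and 7 lower past the threshold, with a median log2 fold change of 0.69, where 31% and 31.8% of all genes tested were. ZBP1, among the 29, entered the test through PAK1 shRNA cells alone. With only probes well above background on all 4 arrays, 28 were higher. Of 10 other ligands and receptors 9 were tested, and 8 rose while none fell. TNF, the ligand of TNFRSF1A, rose most, but its spot on control replicate 1 was flagged as an outlier and left out, so its log2 fold change of 4.45 (standard error 0.27, adjusted p = 5e-05 from limma) rests on 1 control array at 7.29 against 11.40 and 12.08. With the flagged spot kept it was 3.82, and without control replicate 2 it could not be fitted. The fit assumes that this lone control array varies like the others, and an unpaired Student t-test did not call TNF, either before or after Benjamini-Hochberg adjustment. TNFRSF6B, a soluble decoy receptor of Fas ligand, rose by 2.50, and TNFRSF11B, a soluble receptor that also binds TRAIL, rose by 2.04. TNFSF12 did not pass, at -0.16.

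Of the 17 adaptors and regulators of the receptor complexes, 13 rose and 3 fell, where 31% of all genes tested rose and 31.8% fell. The largest changes were those of TNFAIP3, a ubiquitin-editing enzyme that limits NF-kB signalling (3.09, standard error 0.14), of BIRC3, a ubiquitin ligase of the TNF receptor complex (2.93, standard error 0.09), and of RBCK1, a subunit of the linear ubiquitin ligase (2.30, standard error 0.07). The other subunits of that ligase, RNF31 and SHARPIN, rose by 1.52 and 0.60, RIPK1 by 1.02 and TRADD by 1.47; these genes were picked after their values were seen, as were those that fell. Those were FAIM, an inhibitor of Fas-induced apoptosis (-2.25), CASP8AP2 (-1.05) and PEA15, a protein with a death effector domain (-0.47), and DEDD2 did not pass, at 0.01.

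The mitochondrial arm and the executioner caspases were mixed, with 6 of 11 genes higher and 4 lower. Over all genes tested, 31% were higher and 31.8% lower, so the number lower says little about this arm. CYCS, which encodes cytochrome c, fell by 2.03 on the log2 scale (standard error 0.09), as did the executioner caspase CASP6 by 1.49 (standard error 0.09), while BAK1, a pore former of the outer mitochondrial membrane, rose by 1.75 (standard error 0.08). The other genes that fell, also picked after their values were seen, were BID (-1.23), which caspase-8 cleaves to engage mitochondria, and APAF1 (-0.74), and CASP9 did not pass, at 0.17. In the necroptosis arm MLKL, the membrane-breaking effector, rose by 2.35 (standard error 0.08). ZBP1, a nucleic acid sensor, was not well above background on either control array on the probe used, so it entered the test through the PAK1 shRNA cells, where it was at least 7.15-fold higher (adjusted p = 9.7e-06 from limma), at log2 means of 6.07 and 8.91. The other probe of ZBP1 was well above background on control replicate 1. RIPK3, the kinase that activates MLKL, was not well above background on any array.

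**Figure D3:**
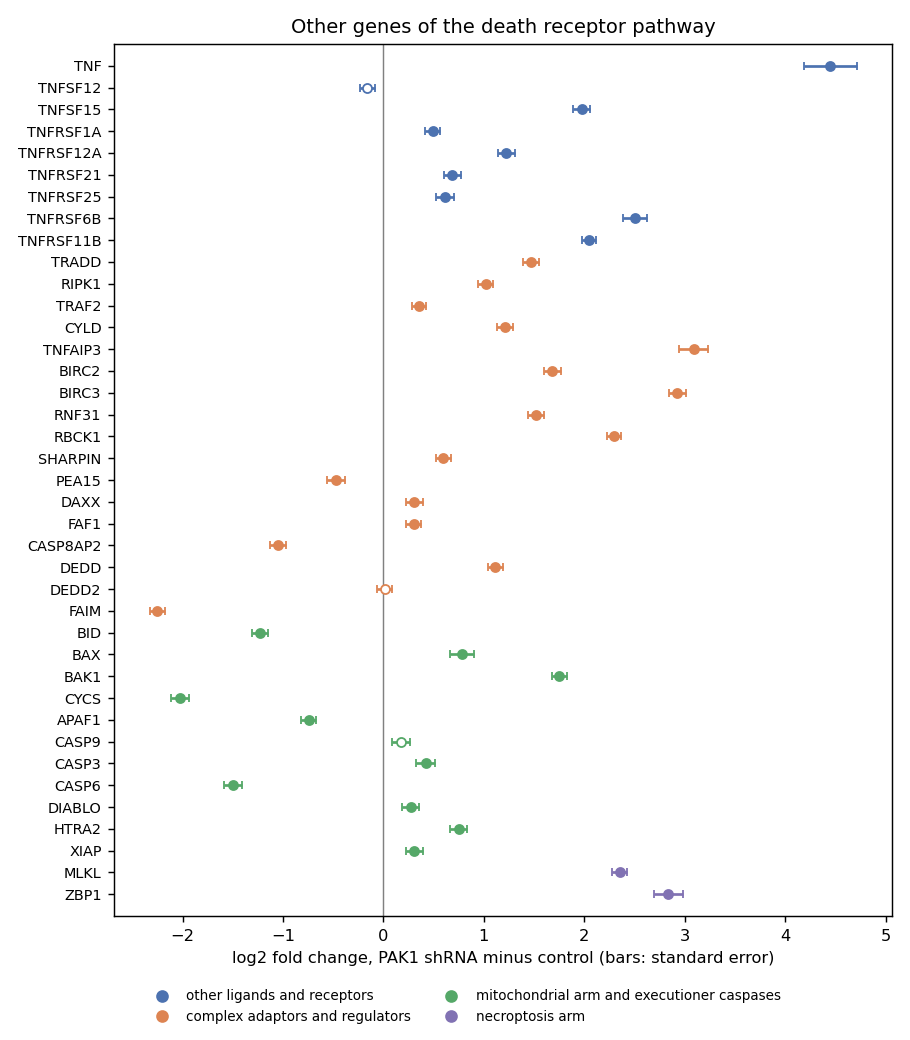
Log2 fold change (PAK1 shRNA minus control, x axis) with its standard error for the 39 other death receptor pathway genes tested (y axis), coloured by role, with open points for the 3 genes that did not pass the threshold. Most regulators lie right of 0, while CYCS, CASP6, BID and APAF1 lie left of it.

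The calls of the 10 genes were set against 19 processing alternatives each. TNFSF10, TNFRSF10A, TNFRSF10C, FAS and CFLAR passed the threshold as higher under all 19, with log2 fold changes from 5.96 to 6.46 for TNFSF10, 1.62 to 1.80 for TNFRSF10A, 2.28 to 2.93 for TNFRSF10C, 2.59 to 2.78 for FAS and 1.37 to 1.65 for CFLAR. FADD lost its call under 10 and TNFRSF10D under 8 of the 19. No gene of the 10 changed sign.

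**Figure D4:**
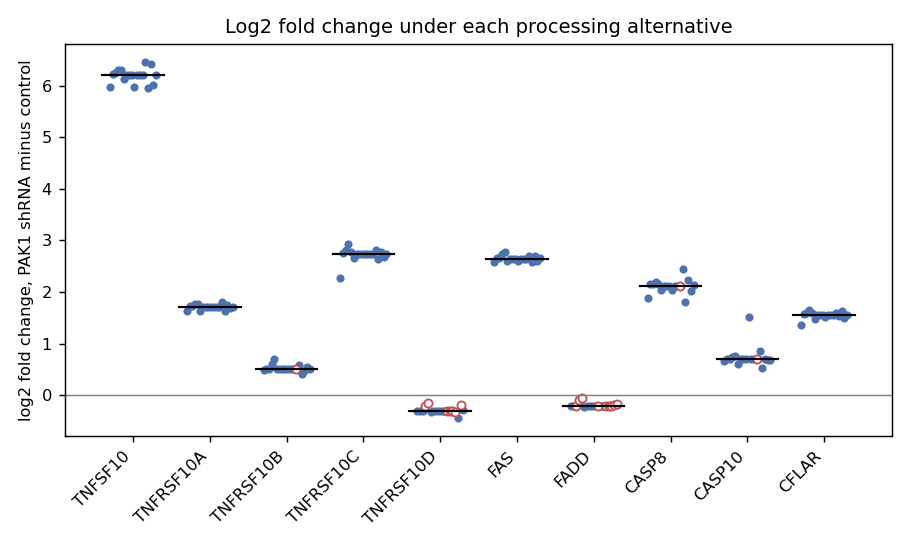
Log2 fold change (PAK1 shRNA minus control, y axis) of the 10 genes (x axis) under each processing alternative other than the 2-fold threshold, which changes no value. Lines are the values reported, filled points have a p under 0.05 in that setting and open points do not, and the open points gather at TNFRSF10D and FADD.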

How the data were processed

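RNA (500 ng) was labelled with Cy3, and the authors deposited the intensity of every spot from Agilent Feature Extraction (version 9.5 per the labels, 9.5.3.1 per the file headers), not normalized between arrays. Their deposited log2 table, run as an alternative, holds values for 24302 of 34183 rows with column medians from 9.40 to 9.42; its offset is unknown, and each column followed its own array (r of at least 0.999). Normexp and quantile normalization were taken from the methods; they were run here on mean signals, with an offset of 50. Spots with a flagged local background were kept out of the normexp fit, because they moved its fitted mean to -666 and -740 on the control arrays, against -9.19 and -12.1 otherwise; fitting on all spots was an alternative. Outlier spots were dropped and repeat spots averaged. A probe entered if it was well above background throughout at least 1 group, and the brightest probe represented the gene. Testing used limma 3.58.1 (R 4.3.3; lmFit, eBayes), with the Benjamini-Hochberg correction across genes. Log2 fold changes are PAK1 shRNA minus control. Where a probe was at background in 1 group, its fold is a lower bound set by the dimmest signal above background on the array, or by the probe itself if brighter.

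Named were the 10 genes, PAK1, the markers checked, the 3 largest changes past the threshold per role, the 5 genes nearest TNFSF10 and those said to be picked later. The genes and lists were chosen with earlier results of these data known. Probe positions (hg19) come from the scanner files and promoters from RefSeq (GRCh38.p14). Simulated data for the comparison, with 22023 genes of which 200 were changed, gave back 100% of changes of 1 and 84% of changes of 0.5 (log2) and 34 false calls. Far more genes were called on the arrays themselves (62.8%), so these rates do not carry over to them. Of the lists, 2 genes are not reported here. A block for slide was not run, as there was 1 slide. Alternatives covered background correction, normalization, filters, probe choice, test, threshold, replicate block, the deposited log2 table and leaving out each array.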

Additional observations from a re-analysis of the deposited data

How the results depend on the processing

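Of the 10 genes, 8 were called higher under each alternative run apart from an unpaired Student t-test after Benjamini-Hochberg adjustment (a test of the study's general statistics, which used limma for arrays), which called 5 (CASP8, CASP10 and TNFRSF10B were at adjusted p of 0.054, 0.089 and 0.076), and the 2-fold threshold, which called 6. The number called lower was 2 as reported, but 1 with a normexp offset of 16, the replicate block, the Student t-test with or without adjustment, and the authors' processed values, and 0 when the processed signal was scaled to its 75th percentile, under cyclic loess and at 2-fold. Leaving out 1 array at a time gave from 0 to 1. The cause was not tested. In total, 167 of 190 values of the 10 genes stayed on their side of the threshold, 23 no longer passed and none turned sign. PAK1 (-0.75) missed the 2-fold threshold and passed otherwise. Over all genes, 4369 were higher by the adjusted t-test, and 1950 were higher and 1971 lower at 2-fold, where 17 of the other pathway genes were higher. The median of all genes was 0.12 after scaling to the 75th percentile and 0.14 after median centring, where 8464 genes were higher and 6689 lower. Deviations of same-numbered arrays had a correlation of 0.0088 over 27517 probes, so nothing shows pairing by number; the replicate block called 6975 genes higher and 7070 lower, and FADD then missed the threshold (adjusted p = 0.060). A lone array was assumed to vary like the other group. Signal over background limits dim probes, such as the last of CASP10.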

Other observations

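Further genes of the TNF ligand and receptor superfamily, taken by the start of their name after the results above were seen, were on the array in addition to those described. Of 8 such ligands 7 were tested, and 5 were higher and none lower past the threshold of limma with Benjamini-Hochberg adjustment, but TNFSF18 was well above background in PAK1 shRNA cells alone and entered the test through them, which leaves 4 higher of 6. TNFSF13 and TNFSF13B, the B cell factors APRIL and BAFF, rose by 2.75 (standard error 0.08) and 2.65 (standard error 0.13), TNFSF14 by 2.72 (standard error 0.15) and TNFSF9, the ligand of 4-1BB, by 2.70 (standard error 0.07). Of 11 such receptors 8 were tested, and 4 were higher and 1 lower, with a median of 0.24. TNFRSF14, the receptor of TNFSF14, rose by 2.07 (standard error 0.12), and TNFRSF13C, a BAFF receptor, was the one that fell (-1.71, standard error 0.26), with control arrays at 9.32 and 8.42 and PAK1 shRNA arrays at 7.15 and 7.17. The list was taken by name alone, but the genes given one by one above were picked after their values were seen. TNFRSF11A (0.80), TNFRSF9 (0.56) and TNFRSF8 (0.31) rose less. TNFSF4 (0.18), TNFSF8 (-0.17), TNFRSF4 (0.05), TNFRSF18 (0.03) and TNFRSF1B (0.18) did not pass. Of all genes tested 31% were higher and 31.8% lower, with a median log2 fold change of 0.02.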
